A study of Mus musculus with 8 samples.

Results

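The insulin-like growth factor (IGF) genes described here are 10 of the 31053 genes listed in the count files, taken by their symbols: the IGF binding protein genes Igfbp2, Igfbp3, Igfbp4, Igfbp5, Igfbp6 and Igfbp7, the ligand gene Igf1, the receptor gene Igf1r, and the adaptor genes Irs1 and Irs2. All 10 symbols were found once each. The genes were taken by name and function and not by a threshold on their values.

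IGF-1 and IGF-2 are secreted growth factors, and serum carries both. They act through the IGF-1 receptor, a tyrosine kinase that phosphorylates the adaptors IRS-1 and IRS-2, which in turn recruit PI3-kinase and so switch on AKT and mTORC1 and switch off the FoxO transcription factors. The binding proteins are secreted as well, hold IGFs outside the cell and can lower or prolong their action, and proteases such as PAPP-A and HTRA1 cleave them. In the developing brain the system is known for its part in the growth and survival of neural precursors.

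Libraries of single-cell 3′ RNA were prepared from SN4741, a mouse cell line labelled as neural precursor cells of WT genotype, with 4 libraries in each of 2 groups. The 37 °C cells grew in high-glucose DMEM with 10% fetal bovine serum, penicillin and streptomycin. The 39 °C cells were moved to DMEM with 0.5% serum and the same antibiotics, and were held there for 48 hours to differentiate. Temperature and serum changed together and cannot be told apart, so 39 °C below stands for both. Cells of both groups carry a temperature-sensitive SV40 T antigen under a tyrosine hydroxylase promoter, and derive from embryonic substantia nigra as a single clonal line. The karyotype of the line is described in the study's text as unstable and polyploid. The labels do not say that libraries came from separate cultures, so p-values measure the spread between these libraries, which may be technical.

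The filtered libraries held 985 to 3494 cells and 17166686 to 29633818 UMIs (unique molecular identifiers, each counting 1 captured transcript). Filters left 18351 of 19125 deposited cells, of which 8550 came from 37 °C and 9801 from 39 °C, and no pair of libraries shared more than 5 barcodes. The share of cells scored as G1 was 24.1% ± 3.41 (mean ± SD of 4 libraries) in the 37 °C group and 84.3% ± 1.22 in the 39 °C group. Mki67, a marker of dividing cells, went from 248 ± 16.7 to 19.2 ± 2.02 CPM (counts scaled to a common library size). Of 7 neural precursor markers, Vim, Nes and Sox2 were present, while Sox1, Pax6, Fabp7 and Msi1 lay under 1 CPM, and 2 of the 4 that could be tested were higher and 1 lower at 39 °C. Nes fell from 467 ± 54.2 to 108 ± 6.36 CPM, Sox2 rose from 55.4 ± 2.23 to 76.5 ± 3.25 CPM, Msi1 rose from 0.0185 to 0.0988 CPM, and Vim was 5396 ± 122 and 5166 ± 216 CPM (edgeR adjusted p = 5.8e-15, 5.33e-08, 0.0286 and 0.372). The Msi1 change rests on 12 UMIs in all 8 libraries together. The summed level of 10 fibroblast and mesenchymal markers ranged from 2077 to 2169 CPM at 37 °C and from 843 to 886 CPM at 39 °C, with Dcn, Lum, Thy1 and Pdgfra under 1 CPM. The summed level of 6 pericyte markers ranged from 66.1 to 73.9 CPM and from 121 to 131 CPM, nearly all of it Notch3 (44.0 and 94.0 CPM) and Cspg4 (24.8 and 31.3 CPM), while Rgs5, Abcc9 and Anpep lay under 1 CPM and Kcnj8 at 0. All 6 endothelial markers were under 1 CPM and Cdh5 and Cldn5 were at 0. Of the 6 microglial and blood markers, C1qa and Hbb-bs were at 0 and Ptprc and Aif1 under 1 CPM. The other members of that list were Hba-a1 (2.29 CPM at 37 °C and 3.13 CPM at 39 °C) and Cx3cr1 (0.805 and 1.18 CPM). The summed level of 6 neuronal markers ranged from 164 to 197 CPM at 37 °C and from 77.3 to 97.5 CPM at 39 °C, with Snap25, Syt1 and Rbfox3 under 1 CPM.

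In the mouse genome (mm10, positions from GENCODE M21), Igfbp2 lies at chr1:72824503-72852474 on the plus strand, and Igfbp5 lies 5457 bases beyond it at chr1:72857932-72874884 on the minus strand. Igfbp3, at chr11:7206086-7213923 on the minus strand, has Igfbp1 3539 bases away. Igfbp6 lies at chr15:102144362-102149511 (plus strand), Igf1r at chr7:67952827-68233668 (plus strand) and Irs2 at chr8:10984681-11008458 (minus strand). RefSeq (GRCm38.p6) lists 11 start sites for the 10 genes. The 250 bases before each start were searched on both strands for 4 sets of letters: a forkhead site (GTAAACA), a cAMP response element (TGACGTCA), a GC box (GGGCGG) and a cell cycle homology region (TTTGAA). The forkhead letters, held by 3.17% of 32851 promoters, and the cAMP response letters, held by 1.55%, were in 0 of the 11 windows. The GC box, held by 32.7% of all promoters, was in 5 windows: those of Igfbp7, Igf1r, Irs1 and Irs2 and the first start of Igfbp2. TTTGAA, held by 16.0% of all promoters, was in the window of Igf1 and of the second start of Igfbp2. A match describes letters only. The windows of the 4 genes whose level changed most with temperature within G1 cells are printed 5′ to 3′ along the strand of the gene, with GC boxes in capitals. They are chr1:72824230-72824479 for Igfbp2 (plus strand), chr11:7213924-7214173 for Igfbp3 (minus strand), chr15:102143936-102144185 for Igfbp6 (plus strand) and chr8:11008930-11009179 for Irs2 (minus strand).
Igfbp2: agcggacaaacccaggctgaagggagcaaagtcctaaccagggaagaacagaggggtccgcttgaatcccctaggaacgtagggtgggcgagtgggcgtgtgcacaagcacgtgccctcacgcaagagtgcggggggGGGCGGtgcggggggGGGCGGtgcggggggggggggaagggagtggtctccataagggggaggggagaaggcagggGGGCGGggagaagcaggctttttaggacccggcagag
Igfbp3: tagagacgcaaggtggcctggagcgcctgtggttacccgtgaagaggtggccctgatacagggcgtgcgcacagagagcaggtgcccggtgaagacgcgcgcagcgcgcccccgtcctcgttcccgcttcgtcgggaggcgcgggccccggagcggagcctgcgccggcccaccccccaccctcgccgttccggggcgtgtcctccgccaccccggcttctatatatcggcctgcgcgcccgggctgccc
Igfbp6: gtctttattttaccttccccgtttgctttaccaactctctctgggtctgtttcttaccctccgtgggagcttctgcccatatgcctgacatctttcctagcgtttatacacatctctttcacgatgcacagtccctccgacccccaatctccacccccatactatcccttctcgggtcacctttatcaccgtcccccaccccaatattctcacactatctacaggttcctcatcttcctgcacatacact
Irs2: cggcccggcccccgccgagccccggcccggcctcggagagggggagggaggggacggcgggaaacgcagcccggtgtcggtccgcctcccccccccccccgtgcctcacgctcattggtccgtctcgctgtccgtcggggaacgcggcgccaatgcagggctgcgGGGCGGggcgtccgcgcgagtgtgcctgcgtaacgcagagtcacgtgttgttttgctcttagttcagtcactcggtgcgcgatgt
The Igfbp2 window holds 3 GC boxes and the Irs2 window holds 1, while the Igfbp3 and Igfbp6 windows hold none of the 4 sets of letters. The Igfbp6 window is also the poorest in G and C of the 11, at 49.6%, against 77.6% for Igf1r at the other end.

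In sums of all kept cells, the IGF genes at 39 °C held more Irs2, Igfbp3, Irs1, Igf1r and Igfbp4 and less Igfbp6, Igf1, Igfbp2 and Igfbp7. Irs2 was 1.90-fold higher and Igfbp3 4.16-fold higher, Igfbp6 was 2.82-fold lower, and the other changes, Igf1 apart, were under 1.5-fold in size. Sums were compared with edgeR's quasi-likelihood test, adjusted by Benjamini-Hochberg over the 15810 genes that averaged 1 count or more in a library. The 10 genes gave 9 that could be tested, since Igfbp5 fell under that mean, and all 9 passed an adjusted p of 0.05, with 5 higher and 4 lower at 39 °C. Over all genes tested 62.0% passed, 31.5% higher and 30.5% lower, so passing is common in these data. For 6 of the 9, every library of 39 °C lay on the same side of the 37 °C libraries, against 56.7% of all genes. Only Igfbp3 and Igf1 of the 9 also passed an adjusted p of 0.01 with a log2 fold change over 1.5 in size, which 5.83% of all genes did. The median log2 fold change was 0.21 over the 9 genes and 0.02 over all genes. A sum cannot separate fewer cells with a transcript from fewer transcripts in each cell, and the counts by cell are given further on.

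**Figure D1:**
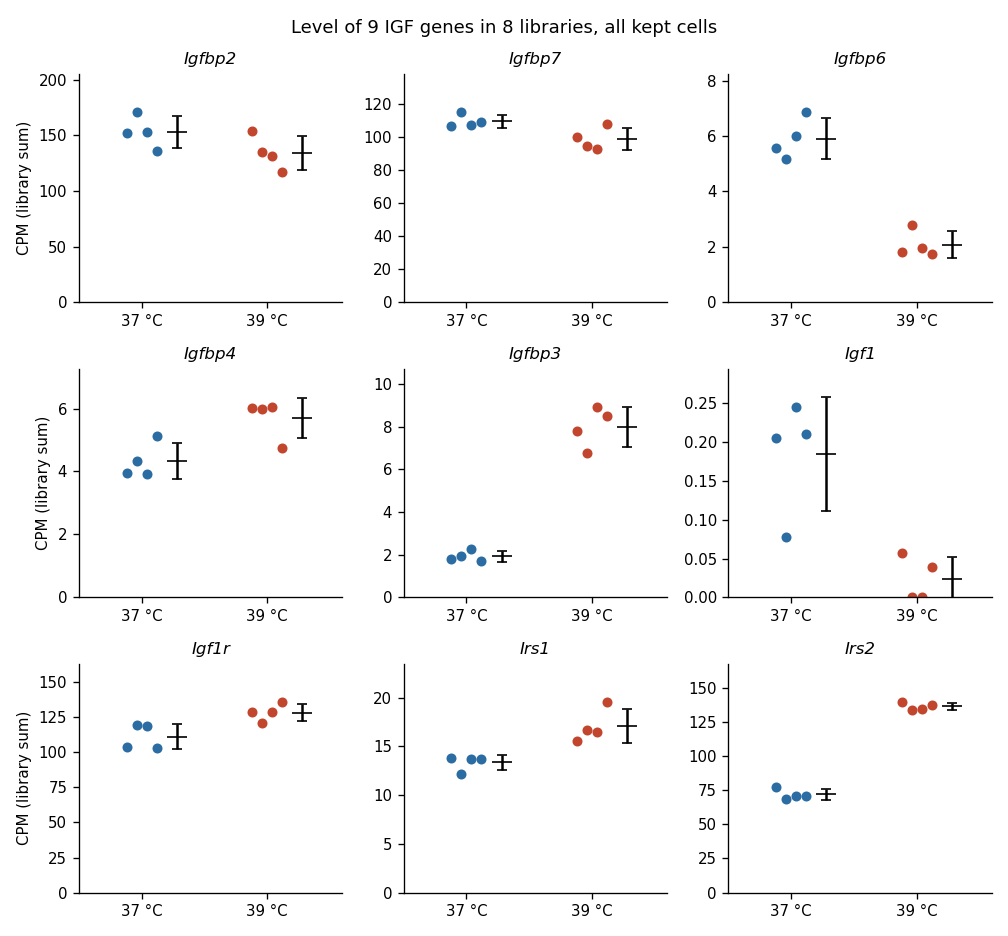
CPM of 9 IGF genes in the sums of all kept cells (y axis, scaled to the library's TMM size and starting at 0), with 1 point per library, 37 °C in blue and 39 °C in red, and the mean with its SD (n = 4) in black. Irs2 lies between 68.8 and 77.6 CPM at 37 °C and between 134 and 139 CPM at 39 °C, whereas the Igfbp2 libraries overlap.

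Among the binding proteins, Igfbp2 and Igfbp7 were the abundant ones. Igfbp2, which carries both IGFs and also binds integrins, measured 153, 171, 153 and 136 CPM in the 4 libraries at 37 °C and 154, 135, 131 and 117 CPM at 39 °C. The groups overlapped, and the log2 fold change was -0.19 ± 0.07 (SE; edgeR adjusted p = 0.0295). That call was lost without 37 °C replicate 2 (-0.13, adjusted p = 0.128) and without 39 °C replicate 2, 3 or 4 (adjusted p = 0.0506, 0.0685 and 0.113). Igfbp7, which binds IGFs weakly and is found in the matrix around cells, measured 107, 115, 107 and 109 CPM at 37 °C and 99.9, 94.7, 92.9 and 108 CPM at 39 °C. The difference on the log2 scale was -0.15 ± 0.05 (edgeR adjusted p = 0.0173), and the call was lost without 37 °C replicate 2 or without 39 °C replicate 2 or 3 (adjusted p = 0.0646, 0.0643 and 0.0774). With library totals in place of TMM scaling neither passed (adjusted p = 0.0749 for Igfbp2 and 0.0588 for Igfbp7).

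The 3 scarcer binding proteins moved in different directions. Igfbp3, the main carrier of IGFs in blood, measured 1.78, 1.94, 2.28 and 1.69 CPM at 37 °C and 7.77, 6.78, 8.92 and 8.48 CPM at 39 °C. Every 39 °C library lay above every 37 °C library, and the log2 fold change was 2.06 ± 0.12 (edgeR adjusted p = 1.69e-11). Igfbp6, which prefers IGF-2, measured 5.55, 5.15, 5.99 and 6.88 CPM at 37 °C and 1.82, 2.80, 1.95 and 1.73 CPM at 39 °C. Here every 39 °C library lay below the 37 °C libraries, by -1.49 ± 0.14 on the log2 scale (edgeR adjusted p = 1.61e-08). Igfbp4, an inhibitory binding protein that PAPP-A cleaves, measured 3.94, 4.34, 3.93 and 5.13 CPM at 37 °C and 6.01, 5.98, 6.05 and 4.74 CPM at 39 °C. The groups overlapped through 37 °C replicate 4 and 39 °C replicate 4, and the log2 fold change was 0.39 ± 0.11 (edgeR adjusted p = 0.00438).

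Ligand transcripts were near the detection limit. Igf1 was counted as 6, 2, 7 and 6 UMIs in the 37 °C libraries and as 1, 0, 0 and 1 UMIs in the 39 °C libraries. That is 21 against 2 UMIs, a ratio of 9.02 at equal library totals (exact 95% interval 2.21 to 79.4, for counting error only), and the edgeR adjusted p was 0.0027. The level at 37 °C was 0.185 CPM (exact Poisson 95% interval 0.115 to 0.284). Igfbp5 was counted as 3 UMIs at 37 °C and 0 at 39 °C, and its neighbour Igfbp2 as 17115 and 13025. Igf2 and Igfals had 0 UMIs in both groups, which allows a level of up to 0.0265 CPM at 37 °C and 0.0308 CPM at 39 °C (3 counts of each total). Igfbp1, next to Igfbp3, had 1 UMI in all 8 libraries.

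The receptor and the adaptors were all higher at 39 °C. Igf1r, which encodes the IGF-1 receptor, measured 104, 120, 119 and 103 CPM at 37 °C and 129, 121, 129 and 136 CPM at 39 °C. The groups touched without overlapping, and the log2 fold change was 0.21 ± 0.06 (edgeR adjusted p = 0.00367). Irs1 measured 13.8, 12.2, 13.7 and 13.7 CPM at 37 °C and 15.5, 16.7, 16.5 and 19.5 CPM at 39 °C. All 39 °C libraries were higher, by 0.36 ± 0.07 on the log2 scale (edgeR adjusted p = 0.000221). Irs2, whose gene FoxO factors are known to switch on, measured 77.6, 68.8, 70.3 and 70.8 CPM at 37 °C and 139, 134, 135 and 138 CPM at 39 °C. The difference was 0.92 ± 0.05 on the log2 scale (edgeR adjusted p = 2.57e-12), and the gap between the groups was many times their spread. The libraries count the 3′ end of each transcript once, with no scaling by length.

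Within each phase of the cell cycle the order was different for Igfbp2, which fell at 39 °C in G1, S and G2M cells alike. Phases were assigned with Seurat's score lists, which hold none of the 10 genes. In G1 cells Igfbp2 measured 275, 369, 308 and 277 CPM at 37 °C and 173, 155, 148 and 133 CPM at 39 °C, so the groups lay far apart. The log2 fold change was -1.01 ± 0.08 (edgeR adjusted p = 5.66e-10), a 2.02-fold difference. In S cells it measured 117, 113, 120 and 99.9 CPM at 37 °C and 56.5, 35.9, 58.8 and 51.1 CPM at 39 °C, again without overlap (-1.16 ± 0.09 on the log2 scale, edgeR adjusted p = 1.63e-11). In G2M cells it measured 112, 131, 112 and 106 CPM at 37 °C and 68.0, 24.4, 21.8 and 26.4 CPM at 39 °C (-1.98 ± 0.16 on the log2 scale, edgeR adjusted p = 1.57e-12). The value of 68.0 CPM comes from the 29 G2M cells of 39 °C replicate 1.

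The small change of Igfbp2 in all cells stood beside a change of phase shares. Igfbp2 was highest in G1 cells at both temperatures, and G1 cells held 21.0% of UMIs at 37 °C and 85.1% at 39 °C. When each library's 3 phase levels were weighted by the mean 37 °C shares, Igfbp2 came to 152 ± 14.5 CPM for the 37 °C libraries and 67.2 ± 14.8 CPM for those at 39 °C (mean ± SD of 4), with no overlap and a log2 ratio of -1.18. With the 39 °C shares the values were 280 ± 39.3 and 136 ± 15.7 CPM, a log2 ratio of -1.04. The level of Igf1r with the 37 °C shares was 110 ± 9.61 and 112 ± 18.3 CPM, a log2 ratio of 0.03. Phase assignment mattered to the size. When cells were scored within each library by itself, which gave G1 shares of 38.1% to 42.5% at 37 °C and 54.1% to 58.8% at 39 °C, the log2 fold changes of Igfbp2 were -0.46, -0.36 and -0.53 in G1, S and G2M cells. All 3 still passed (edgeR adjusted p = 1.48e-05, 0.0102 and 0.00148).

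**Figure D2:**
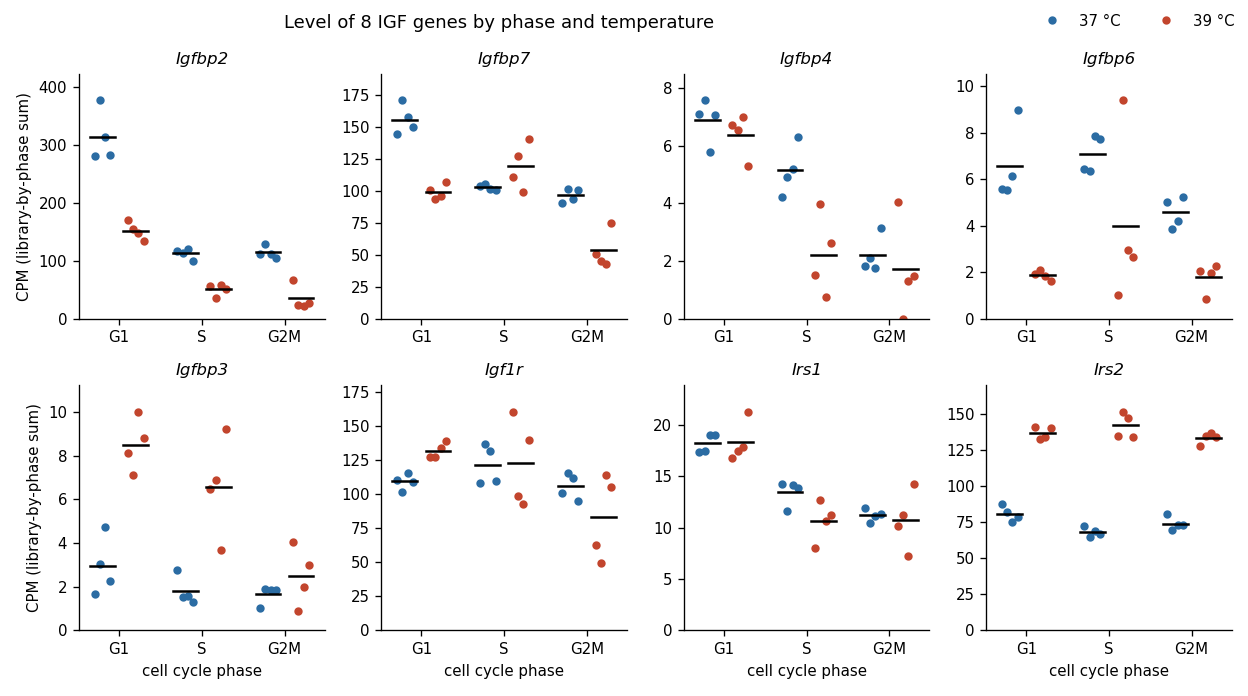
CPM of 8 IGF genes (y axis, starting at 0) in the sums of G1, S and G2M cells of each library (x axis), 37 °C in blue and 39 °C in red, with 1 point per library and a black bar at the mean of 4. Igfbp2 is lower at 39 °C in each phase and highest in G1, while Irs2 is higher at 39 °C in each phase and nearly level across phases.

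With phases scored over all cells together, Irs2, Igfbp6 and Igfbp3 moved in the direction of the all-cell sums within phases. Neither Irs1 nor Igfbp4 passed as higher at 39 °C in any phase. Irs2 rose in G1, S and G2M cells, from 79.1 ± 5.4 to 138 ± 4.59 CPM, from 68.1 ± 3.30 to 141 ± 9.59 CPM and from 74.5 ± 4.65 to 135 ± 3.54 CPM. The log2 fold changes were 0.80 ± 0.06, 1.06 ± 0.07 and 0.86 ± 0.09 (edgeR adjusted p = 7.08e-11, 4.8e-14 and 3.8e-10), with no overlap in any phase. Igfbp3 rose in G1 and S cells by 1.62 ± 0.21 and 1.89 ± 0.29 (edgeR adjusted p = 9.21e-07 and 2.82e-06). In G2M cells, with 10 UMIs at 39 °C, the change was 0.43 ± 0.53 (edgeR adjusted p = 0.588), and it was 2.14 with phases scored within libraries (adjusted p = 1.79e-08). Igfbp6 fell in G1 cells by 1.76 ± 0.19 on the log2 scale (edgeR adjusted p = 5.03e-08).

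In S and G2M cells the changes of Igfbp6 were -0.77 ± 0.29 and -1.37 ± 0.44 (edgeR adjusted p = 0.0314 and 0.017), from 44 and 8 UMIs at 39 °C. In S cells the groups overlapped. There 39 °C replicate 2 held 26 of the 44 UMIs, at 9.42 CPM, above every 37 °C library (6.33 to 7.85 CPM). The other 39 °C libraries held 0.991 to 2.94 CPM. The S call was lost without 39 °C replicate 1, 3 or 4 (adjusted p = 0.130, 0.132 and 0.175) and with DESeq2 (0.247), and the G2M call without 39 °C replicate 2 (adjusted p = 0.0879). Igf1r was higher in G1 cells, at 107 ± 5.81 and 133 ± 5.27 CPM, by 0.31 ± 0.05 (edgeR adjusted p = 4.93e-05). Its change was 0.00 ± 0.10 in S cells and -0.26 ± 0.13 in G2M cells (edgeR adjusted p = 0.99 and 0.133). The G2M value passed without 39 °C replicate 3 (-0.48, adjusted p = 0.0113), with the replicate block (-0.31, adjusted p = 0.0165) and with no filter on low counts (-0.27, adjusted p = 0.0276), and with phases scored within libraries it turned to 0.49 (adjusted p = 0.00021).

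Irs1 measured 17.9 ± 0.889 and 18.5 ± 1.95 CPM in G1 cells at 37 °C and 39 °C, a difference of 0.06 ± 0.09 on the log2 scale (edgeR adjusted p = 0.642). It was -0.32 ± 0.15 in S cells and -0.07 ± 0.22 in G2M cells (adjusted p = 0.0893 and 0.851), and the S value passed without 37 °C replicate 2 (-0.37, adjusted p = 0.0451). With 37 °C phase shares its log2 ratio was -0.07 and with 39 °C shares 0.01, against 0.39 as measured, each from plain UMI totals without TMM scaling. With phases scored within libraries the G1 change of Irs1 was 0.26 and passed (edgeR adjusted p = 0.0126). The S and G2M changes were then 0.20 and 0.23 (adjusted p = 0.117 and 0.177). Igfbp4 gave -0.07 ± 0.14 in G1 cells (edgeR adjusted p = 0.704) and fell in S cells by 1.18 ± 0.31 (adjusted p = 0.0024), a call that was lost with phases scored within libraries (-0.37, adjusted p = 0.15). In G2M cells it gave -0.73 ± 0.61 (edgeR adjusted p = 0.405). Phases scored within libraries gave 0.25 in G1 cells and 0.60 in G2M cells (adjusted p = 0.104 and 0.0938).

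Igfbp7 fell in G1 cells from 152 ± 11.2 to 99.8 ± 5.55 CPM (log2 difference -0.61 ± 0.06, edgeR adjusted p = 1.03e-08), and in G2M cells by 0.84 ± 0.12 (adjusted p = 7.01e-07). In S cells it was higher at 39 °C by 0.22 ± 0.07 (adjusted p = 0.0167), and that call was lost without 39 °C replicate 2 or 4 (adjusted p = 0.0753 and 0.199) and with phases scored within libraries (0.12, adjusted p = 0.157). In G1 cells 6 of the 8 IGF genes tested passed, 3 higher and 3 lower, where 47.1% of 14712 genes did. Of the 8, Igfbp3 and Igfbp6 met the limit on size, which 2.54% of genes met. In S cells 6 of 8 passed against 43.5% of 13740 genes, and in G2M cells 4 of 9 passed against 29.7% of 13802 genes. The median log2 fold changes of these genes were -0.01, -0.16 and -0.73 in G1, S and G2M cells, against 0.04, -0.01 and -0.04 over all genes.

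Compared phase against phase within libraries, all 5 binding proteins tested were lower in G2M than in G1 cells at 37 °C, and 4 of the 5 at 39 °C. At 37 °C the largest differences were those of Igfbp4, 3.13-fold lower (log2 difference -1.64 ± 0.20, edgeR adjusted p = 3.64e-11), and Igfbp2, 2.73-fold lower (-1.45 ± 0.05, adjusted p = 7.82e-42). Igfbp7 and Irs1 were lower by 0.69 ± 0.04 and 0.70 ± 0.10 (adjusted p = 4.76e-23 and 5.26e-09). Of the 8 genes tested, 7 passed at 37 °C, all lower in G2M, where 43.5% of 14172 genes passed. Igfbp3, Igfbp6 and Irs2 were the weakest of the 7 (log2 differences -0.79, -0.50 and -0.13, adjusted p = 0.0167, 0.0161 and 0.0255). Igfbp3 lost its call without 37 °C replicate 3 (adjusted p = 0.243), and so did Igfbp6 (0.0503), which also lost it without 37 °C replicate 4 (0.154). Irs2 lost it without 37 °C replicate 1 or 2 (0.159 and 0.187) or 39 °C replicate 1 or 2 (0.0657 and 0.0728). With phases scored within libraries Igfbp3 and Irs2 did not pass (-0.21 and -0.10, adjusted p = 0.544 and 0.0731).

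At 39 °C 6 of 8 passed, again all lower in G2M, against 26.5% of all genes. Igfbp2 was 5.15-fold lower (log2 difference -2.36 ± 0.13, edgeR adjusted p = 1.23e-26), Igfbp4 4.74-fold lower (adjusted p = 8.78e-05) and Igfbp3 3.90-fold lower (adjusted p = 7.8e-05). With phases scored within libraries Igfbp2 stayed lower (-1.17, adjusted p = 6.74e-15), while Igfbp3 gave 0.08 (adjusted p = 0.804) and Igf1r turned from -0.57 to 0.18 (adjusted p = 0.0842). Irs2 gave -0.02 ± 0.06 and Igfbp6 -0.07 ± 0.56 (adjusted p = 0.844 and 0.945). The temperature change in G2M cells differed from that in G1 cells for 2 of the 8, Igfbp2 (-0.91 ± 0.16 on the log2 scale, adjusted p = 3.36e-05) and Igf1r (-0.52 ± 0.13, adjusted p = 0.00388), where 7.06% of all genes differed. Neither held when phases were scored within libraries: the difference was 0.02 for Igfbp2 (adjusted p = 0.958) and 0.31 for Igf1r (adjusted p = 0.0305). That of Igf1r was also lost without 39 °C replicate 2 (-0.36, adjusted p = 0.0726) and with DESeq2 (adjusted p = 0.187).

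Across single cells, Igfbp2 was spread far less evenly than its mean level would give. Each kept cell was thinned at random to 5000 UMIs, which left out 668 shallower cells at 37 °C and 1668 at 39 °C. Of the 1668 cells, 1009 came from 39 °C replicate 4 and 36 from 39 °C replicate 1, so libraries were cut to unlike degrees. Igfbp2 was then seen in 24.1% ± 1.03 of cells at 37 °C and in 19.5% ± 1.5 at 39 °C (SD over 4 libraries). The same mean spread evenly, as a Poisson count, would be seen in 56.8% and 50.0% of cells. Without thinning the shares were 31.1% ± 2.24 and 24.3% ± 3.77. The 10% of cells with the most Igfbp2 held between 75.7% and 85.5% of all Igfbp2 UMIs in each library. The variance over mean of its counts ran from 6.09 to 8.02, and in each library only 5 to 10 of the 3322 genes with a mean of at least 0.2 UMIs exceeded it, while the median gene stood at 1.07 to 1.09.

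Over all cells, those with Igfbp2 held 3.49 ± 0.180 UMIs of it on average at 37 °C and 3.56 ± 0.228 at 39 °C, and these values overlapped. In G1 cells 35.9% ± 3.81 had a UMI at 37 °C and 21.2% ± 1.53 at 39 °C, and those cells held 4.74 ± 0.320 and 3.66 ± 0.221 UMIs of Igfbp2 on average. Neither measure overlapped between temperatures in G1 cells. In S cells the shares were 20.3% ± 1.56 and 10.5% ± 2.40, and in G2M cells 20.9% ± 1.14 and 7.36% ± 0.662. In S cells with Igfbp2 the mean was 2.90 ± 0.0780 and 2.43 ± 0.168 UMIs, with no overlap, and in G2M cells 2.79 ± 0.300 and 2.16 ± 0.628 UMIs, with overlap. The culture holds no cell type known to lack these transcripts, so the share that free RNA alone gives was not measured.

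Irs2 was spread far more evenly than Igfbp2. It was seen in 29.4% ± 1.06 of thinned cells at 37 °C and in 48.4% ± 2.84 at 39 °C, close to the 31.3% and 50.7% of an even spread, with a variance over mean of 1.10 to 1.18. That still lay above the 1.07 to 1.09 of the median gene, and 733 to 1513 of the 3322 genes exceeded it in a library. Igfbp7 stood between Igfbp2 and Irs2, in 33.0% ± 0.892 and 26.7% ± 1.51 of cells, with a variance over mean of 1.64 to 2.65. Only 56 to 192 of the 3322 genes exceeded it, so it too was among the more uneven genes. Igfbp3 was seen in 0.926% ± 0.240 of thinned cells at 37 °C and 3.50% ± 0.206 at 39 °C, Igfbp6 in 2.95% ± 0.136 and 1.07% ± 0.217, and Irs1 in 6.15% ± 0.682 and 8.22% ± 1.11.

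**Figure D3:**
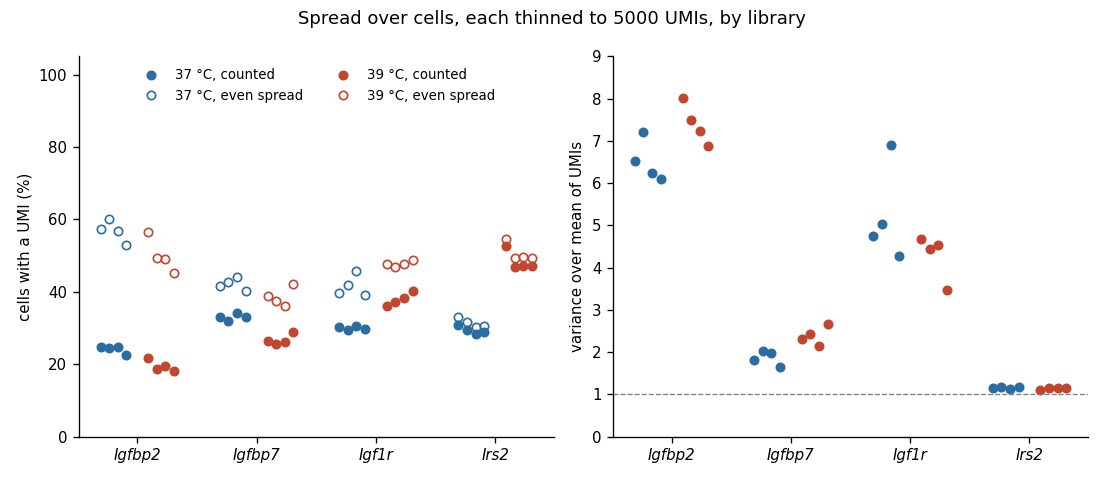
Left, percent of cells with at least 1 UMI after thinning each cell to 5000 UMIs (filled points, 1 per library) and the percent that a Poisson count of the same mean would give (open points), 37 °C in blue and 39 °C in red. Right, variance over mean of the thinned counts per library, with a dashed line at 1, the Poisson value. Igfbp2 lies far below its open points and has a variance over mean of 6.09 to 8.02, and Irs2 lies close to its open points.

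Igf1r was uneven in another way, through a small set of cells with very many transcripts. Its variance over mean ran from 3.48 to 6.91, exceeded by 8 to 29 of the 3322 genes. Cells with 5 or more Igf1r UMIs of 5000 made up 1.24%, 1.75%, 2.00% and 1.38% of the 37 °C libraries and 1.58%, 1.59%, 1.43% and 1.57% of the 39 °C libraries. That is 122 of 7882 cells and 125 of 8133 cells, where a Poisson count of the same mean would give at most 1.59 such cells in a library. These cells were present in all 8 libraries at like shares, and they held 27.5% to 38.4% of all Igf1r UMIs at 37 °C and 22.1% to 27.1% at 39 °C. The highest count in 1 kept cell before thinning was 141.

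The genes most like Igf1r across cells were its neighbours on chromosome 7. Over the 9383 other genes with a mean of at least 0.02 UMIs in every library, the 4 highest median Pearson r with Igf1r, computed over cells on log2(UMIs + 1), were those of Lrrc28 (0.35), Synm (0.32), Ttc23 (0.29) and Mef2a (0.25). Each r is a description over 8 libraries, with a range of 0.28 to 0.42 for Lrrc28 and 0.19 to 0.29 for Mef2a, and cells share library and depth. All 4 genes lie upstream of Igf1r within 1 Mb of it. Ttc23, at chr7:67647410-67762912, ends 190 kb from Igf1r, and Synm, at chr7:67730160-67759742, lies within the span of Ttc23 on the opposite strand. Lrrc28, at chr7:67513410-67645268, ends 308 kb from Igf1r, and Mef2a, at chr7:67231163-67372858, ends 580 kb from it. They have unlike functions: synemin (Synm) is an intermediate filament protein and MEF2A a transcription factor of muscle and nerve cells.

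In the cells with 5 or more Igf1r UMIs the same 4 genes were many times higher than in other cells of the library. They had been picked by their r with Igf1r over these same cells, so a higher level was built into the choice. The ratios describe its size and are not separate evidence. Synm was 21.2- to 34.1-fold higher, Lrrc28 17.3- to 41.4-fold, Ttc23 18.5- to 34.8-fold and Mef2a 8.36- to 17.1-fold, each in 8 of 8 libraries. Of the other genes within 1 Mb with a mean of at least 0.005 UMIs, Lysmd4, which overlaps Mef2a on the opposite strand, had a median ratio of 0.873 and was higher in 3 of 8 libraries. Arrdc4, 503 kb downstream of Igf1r, had a median ratio of 1.21 and was higher in 4 of 8. The ratios of Lysmd4 and Arrdc4 rest on very few UMIs. In the cells with many Igf1r UMIs their library means were 0 to 0.0370 and 0.0263 to 0.133 UMIs per cell. Within 5 Mb, 5 of 21 genes were among the 20 most like Igf1r. The fifth was Aldh1a3, 1525 kb upstream, with an r of 0.12. For Igfbp2, Igfbp7 and Irs2 the same window held 1 of 38, 0 of 26 and 0 of 31 genes among the 20 most alike.

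**Figure D4:**
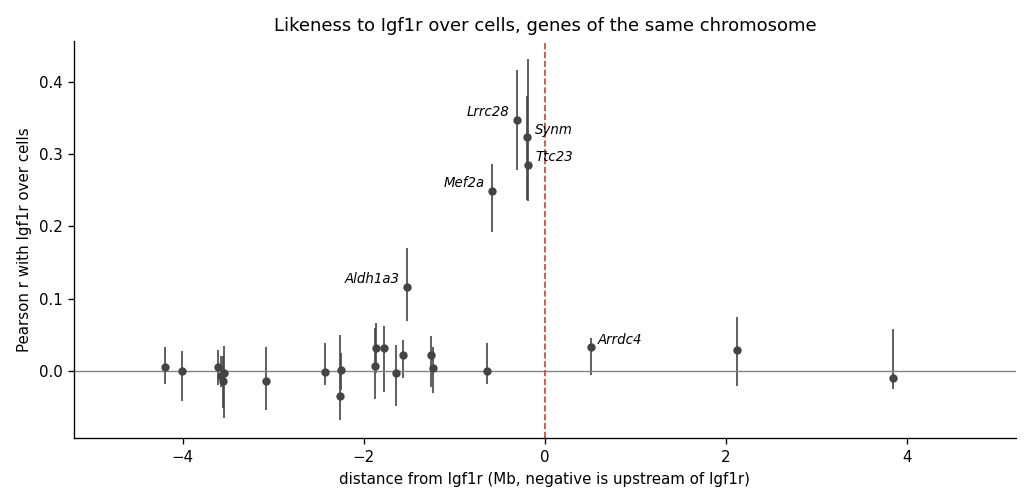
Pearson r with Igf1r over cells thinned to 5000 UMIs (y axis; point, median of 8 libraries; bar, lowest to highest library) of genes on the same chromosome, by the distance between the gene and Igf1r in Mb (x axis, negative is upstream, dashed line at Igf1r). Mef2a, Lrrc28, Synm and Ttc23 reach 0.25 to 0.35, and Arrdc4 on the other side stays at 0.03.

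The depth of the cells with many Igf1r UMIs before thinning differed from that of all thinned cells. At 37 °C their median was 11803, 18908, 16388.5 and 10966 UMIs by library, against 11950, 15122, 15752.5 and 10545 UMIs for all thinned cells. At 39 °C it was 13639, 6880.5, 9210 and 7511 UMIs, against 17053, 9409.5, 10631 and 8073 UMIs, so these cells were shallower in 4 of 4 libraries. At 37 °C 18.5%, 17.9%, 14.7% and 12.1% of them were in G1, against 27.5%, 23.3%, 22.2% and 19.4% of all thinned cells, so the share was lower in 4 of 4 libraries. At 39 °C 86.7%, 92.1%, 87.9% and 87.2% were in G1, against 85.7%, 85.0%, 84.7% and 83.3%, so the share was higher in 4 of 4. These rest on 15 to 39 such cells in a library, and the difference was not tested. Without them, the mean Igf1r count per thinned cell was 0.368 ± 0.01 at 37 °C and 0.497 ± 0.0239 at 39 °C, a log2 ratio of 0.43, against 0.27 with them. Both ratios are given as descriptions and no conclusion is drawn from a p-value for them, since the cells were removed by their Igf1r count at a cut chosen after seeing the data. DNA copy number was not measured in these libraries, and its part in the pattern was not tested.

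Few of the IGF genes showed a likeness across cells at this depth. Pairs of scarce genes rest on very few cells, and their r cannot show whether they are alike. Igfbp3 and Igfbp6 were seen together in 2 thinned cells at 37 °C and 1 at 39 °C, and Igfbp5 in 1 thinned cell at 37 °C. Over the 45 pairs, r lay between -0.0936 and 0.26 in any library, and the highest was that of Igfbp2 and Igfbp7, with a median of 0.21 at 37 °C and 0.24 at 39 °C. Igfbp2 was most like Col8a1 (0.31), a short-chain collagen, Hopx (0.26), a homeodomain protein of stem and progenitor cells, and Timp3 (0.23), a metalloprotease inhibitor of the matrix. Igfbp7 was most like Tmsb4x (0.31), an actin-binding peptide, and Acta2 (0.27), smooth muscle actin. Acta2 itself went from 225 ± 27.6 CPM at 37 °C to 25.3 ± 4.90 CPM at 39 °C, and Col1a1, another gene of the mesenchymal list, from 1027 ± 24.1 to 575 ± 11.2 CPM. The part of these genes in the levels of Igfbp2 and Igfbp7 was not tested. For Irs2, Irs1 and Igfbp3 no gene had a median r over 0.08. Irs1 and Igfbp3 were seen in few thinned cells, which by itself keeps r low.

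Over the 24 sums of 8 libraries and 3 phases, which share libraries, the genes most like Igfbp2 by Pearson r of log2(CPM + 1) were Tcf12 (0.92), a helix-loop-helix factor, and Mmp2 (0.92), a gelatinase that can cleave binding proteins. Irs2 was most like Hmga2 (0.97), a chromatin protein of stem and tumour cells, and Ptp4a3 (0.97), a phosphatase. Irs1 was most like Pax3 (0.91), a factor of the neural crest, and Cda (0.89), cytidine deaminase. Igfbp7 was most like Ndnf and Trim2 (0.88 each) and Igf1r most like St7 (0.81) and Iah1 (0.80). These were the leading pairs among 8357 genes of at least 10 CPM. The sums differ by temperature and phase, so a shared change with either is enough for a high r. How many genes came close to these values was not counted. Across cells the highest median r of any gene with Irs2 was 0.07.

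Around the receptor, 65 other genes of the pathway were listed by role, and 59 could be tested in the all-cell sums. Of these, 30 were higher and 15 lower at 39 °C and 14 did not pass, where 62.0% of all genes passed, 31.5% higher and 30.5% lower. Among the binding protein proteases and their regulators 2 of 10 were higher and 4 lower, with a median log2 fold change of -0.09, and the 6 called of 10 are close to the share over all genes. Htra1, a secreted serine protease that cleaves binding proteins, went from 111 ± 9.18 to 35.2 ± 1.31 CPM (-1.66 ± 0.06, edgeR adjusted p = 1.09e-14). Ctsd, a lysosomal protease, rose from 423 ± 14.7 to 650 ± 19.8 CPM (0.62 ± 0.05, adjusted p = 1.79e-09), and Mmp14, a membrane metalloprotease, fell by 0.13 ± 0.05 (adjusted p = 0.0171), which failed without 39 °C replicate 2 or 4 (0.0507 and 0.0552). Of the genes under 5 CPM, named here after their values were seen, Pappa, which encodes the protease PAPP-A, rose from 0.616 ± 0.0944 to 1.88 ± 0.529 CPM (1.64 ± 0.22, adjusted p = 2.46e-06). Adam12, a metalloprotease, fell from 0.867 ± 0.271 to 0.254 ± 0.0692 CPM (-1.82 ± 0.32, adjusted p = 6.23e-05), and Stc2, an inhibitor of PAPP-A, fell by 0.59 ± 0.19 (adjusted p = 0.0107).

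Of the receptors, Insr, which encodes the insulin receptor, rose by 0.36 ± 0.06, from 20.3 ± 1.54 to 26.2 ± 1.61 CPM (edgeR adjusted p = 3.94e-05). Igf2r, which clears IGF-2, rose by 0.14 ± 0.04 (adjusted p = 0.00821). Among the adaptors and brakes 4 of 11 were higher and 4 lower, with a median of 0.10. Grb10, an inhibitory adaptor of both receptors, fell from 64.1 ± 2.25 to 35.7 ± 4.19 CPM (-0.85 ± 0.06, adjusted p = 5.35e-10) and Socs2, a feedback inhibitor, by 0.52 ± 0.08 (adjusted p = 1.09e-05). Gab1, a docking protein, rose by 0.59 ± 0.05 (adjusted p = 1.47e-08).

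Of the PI3-kinase and AKT genes 7 of 14 were higher and 4 lower (median 0.17). Pik3ip1, an inhibitor of PI3-kinase, rose by 0.79 ± 0.07 (edgeR adjusted p = 3.52e-09), the subunit genes Pik3r3 and Pik3ca by 0.67 ± 0.07 and 0.65 ± 0.04 (adjusted p = 8.61e-08 and 1.65e-10). Of the genes listed for mTORC1 and its inputs 10 of 15 were higher and 2 lower (median 0.37). The largest changes were those of 3 negative regulators of mTORC1: Deptor (0.87 ± 0.11, adjusted p = 1.45e-06), Sesn3 (0.87 ± 0.05, adjusted p = 1.42e-11) and Tsc1 (0.81 ± 0.05, adjusted p = 2.11e-11). The 2 lower, named here after their values were seen, were Eif4ebp1 (-0.45 ± 0.05, adjusted p = 3.86e-07) and Rps6kb1 (-0.21 ± 0.05, adjusted p = 0.00119). The higher genes of this list include Rictor of mTORC2 (0.65 ± 0.05, adjusted p = 1.05e-09). Of the FoxO and GSK3 genes 5 of 6 were higher and 1 lower (median 0.37), among them Foxo6 (0.62 ± 0.07), Foxo3 (0.54 ± 0.05) and Foxo1 (0.47 ± 0.05), with adjusted p = 2.69e-07, 1.08e-08 and 1.84e-07. The median over all genes was 0.02. These are transcript levels, and protein activity was not measured.

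**Figure D5:**
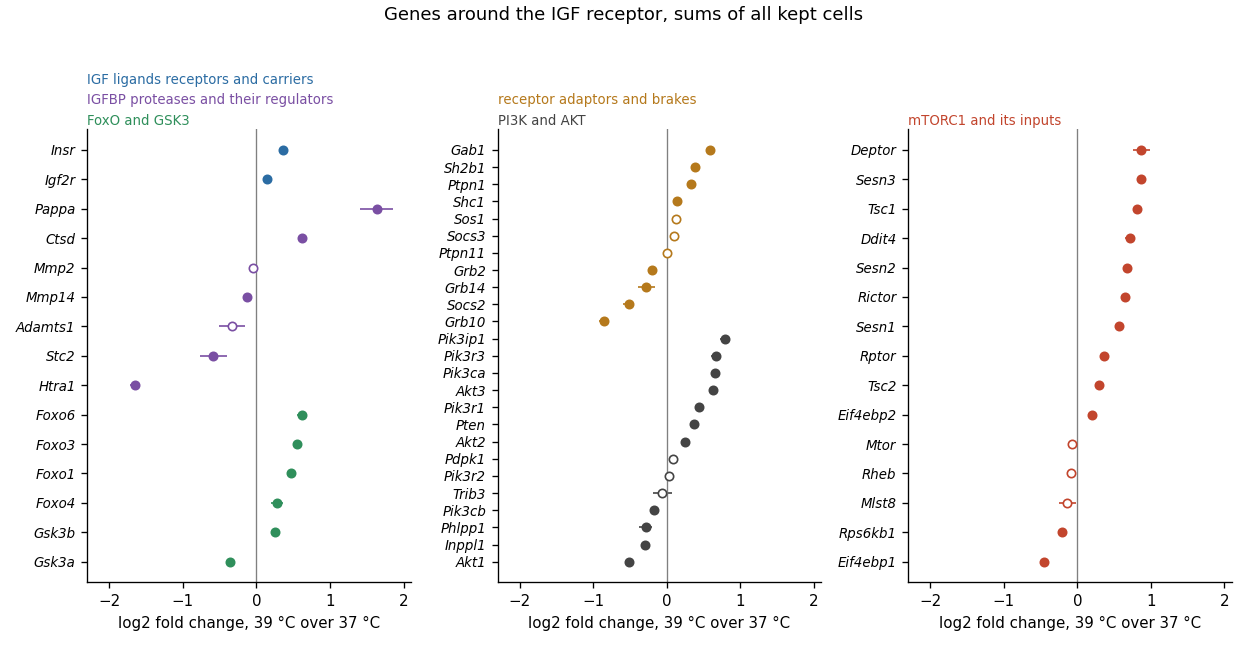
Log2 fold change of 55 pathway genes with at least 1 CPM in either group (x axis, 39 °C over 37 °C, bar is the SE), coloured by list and ordered by value within it, filled where the edgeR adjusted p was under 0.05. Htra1 lies at -1.66 and Pappa at 1.64, and 10 of the 15 genes listed for mTORC1 and its inputs are filled and above 0.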

How the data were processed

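SN4741 cells were profiled in 8 libraries, grouped by the temperature in the titles. According to the submitters' processing notes and the labels, the authors made the deposited UMI count matrices with Cell Ranger 3.0.1 on mm10, as whole numbers with no normalization, from 10x 3' V3 libraries. The 10 genes and the wider lists were chosen with earlier results of these data known.

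Cells were kept at no more than 15% mitochondrial UMIs and between 200 and 6000 genes, following the study, which gave 985 to 3494 cells per library. No doublet caller was run beyond the limit on genes. Phases came from CellCycleScoring (Seurat 5.3.0, R 4.3.3; 42 S and 52 G2M genes found). Counts were summed per library, or per library and phase, and fitted with edgeR 4.0.16 (glmQLFit, glmQLFTest, TMM factors, temperature as the only term) on genes averaging 1 count or more, with Benjamini-Hochberg adjustment over all tested genes. Phase contrasts used 24 sums with library as a block. DESeq2 1.42.0, other scalings, filters, cell limits and phase assignments and the removal of each library were alternatives. CPM are scaled by TMM, except for the phase-weighted levels, the pooled levels and limits of rare genes, and genes that were not tested, which use plain UMI totals. Totals of 17166686 to 29633818 UMIs per library set the counting precision. Intervals and limits for counts of 0 cover counting error only. Genes named beyond the 10 were up to 3 per list with the largest change among those at an adjusted p under 0.05 and at least 5 CPM, and the 2 most alike over the 24 sums for each gene of at least 10 CPM. Cells were thinned without replacement (Python 3.11.15, numpy 2.4.6), and the fits and cell statistics were tested on simulated data. Pairing of libraries by replicate number was not assumed: deviations of same-numbered libraries correlated at -0.12, -0.12, -0.09 and 0.29. Replicate 4 correlated best with its own number, and so few libraries cannot exclude pairing.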

Additional observations from a re-analysis of the deposited data

Results flagged for a closer look

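Each gene's values in 4 libraries were tested for a library far from the other 3 with Dixon's test, which chance alone would pass in about 1 of 20 groups; 6 of 62 groups passed. Igfbp4 in all cells was 4.74 CPM in 39 °C replicate 4, where the other libraries held 5.98 to 6.05 CPM. Irs1 was low in 37 °C replicate 2, with 12.2 CPM in all cells (others 13.7 to 13.8 CPM) and 11.5 CPM in S cells (others 13.8 to 14.2 CPM). Igfbp3 in 37 °C replicate 1 was 2.79 CPM in S cells (others 1.31 to 1.55 CPM) and 1.01 CPM in G2M cells (others 1.85 to 1.90 CPM). Igfbp2 in G2M cells was 68.0 CPM in 39 °C replicate 1, which had 29 such cells, and 21.8 to 26.4 CPM in the others.

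The temperature change in G2M cells differed from that in G1 cells by -0.91 (log2) for Igfbp2 and by -0.52 for Igf1r, by the interaction term of the edgeR fit (adjusted p = 3.36e-05 and 0.00388). With phases scored within each library these were 0.02 and 0.31.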

How the results depend on the processing

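Of 1228 values of 78 single results under the alternatives, 1149 kept direction and side of the threshold, 40 lost the call, 6 gained one and 33 changed sign. The 1149 include the Igf1r change without the cells of 5 or more Igf1r UMIs, a cut chosen after seeing the data. Its side of the threshold came from an exact permutation test on cells removed by that same count. That value therefore cannot show that the Igf1r result is stable. Scoring phases within each library changed most: genes past the size limit in G1 cells went from 374 to 584, genes called in G2M cells from 4101 to 7347 and genes with an interaction from 1001 to 2363. The IGF genes with an interaction went from 2 to 1 there and with DESeq2, and ranged from 1 to 2 with a library left out. Under within-library phases, log2 values that changed sign were those of Igfbp4 in G1 cells (0.25), Igf1r and Irs1 in S cells (0.11 and 0.20), Igfbp4, Igf1r and Irs1 in G2M cells (0.60, 0.49 and 0.23), Igfbp3, Igf1r and Irs2 for G2M against G1 at 39 °C (0.077, 0.18 and 0.057), and the interactions of Igfbp2, Igfbp3, Igfbp4, Igf1r and Irs1 (0.016, 0.28, 0.40, 0.31 and 0.0097). Igf1r in S cells, near 0, became 0.016 with DESeq2 size factors, 0.096 with library totals, 0.032 with filterByExpr, 0.029 with DESeq2 and 0.080 with a mitochondrial limit of 10%. Irs2 in G2M against G1 cells at 39 °C became 0.0087, 0.036, 0.0019 and 0.00698 under the first 4 of these, and Irs1 in G2M cells became 0.014 with library totals. With each library left out, the range was -0.14 to 0.012 for Igfbp4 in G1 cells, -0.022 to 0.087 for Irs1 in G1 cells, -0.13 to 0.11 for Igf1r in S cells, -0.29 to 0.14 for Irs1 in G2M cells, -0.33 to 0.21 for Igfbp6 in G2M against G1 cells at 39 °C and -0.25 to 0.070 for the interaction of Irs1. The cause of these changes was not tested. With the replicate block, 9617 genes and 9 IGF genes were called in all cells, 6778 genes in G1 cells, 5976 in S cells and 3990 in G2M cells, where 5 IGF genes in place of 4 passed, the fifth being Igf1r; 1 of 4 numbers correlated best with its own, and the block was not used in the phase contrasts, which block on library. Of 56 shares of cells with a UMI, 17 moved by more than 1 SD, mostly with the number of UMIs kept per cell. G2M cells at 39 °C limit the depth: Igfbp3, Igfbp4 and Igfbp6 had 10, 6 and 8 UMIs there.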

Other observations

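Rpl37a, a ribosomal protein gene that ends 111 kb upstream of Igfbp2, was the single gene within 5 Mb of Igfbp2 among the 20 most like it across cells, with a median r of 0.22 over 8 libraries (0.18 to 0.26). Igfbp5, 5457 bases away on the other side, had 3 UMIs in all 8 libraries.

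Of the rarer pathway genes, Irs3 had 1 UMI at 37 °C and 2 at 39 °C, Irs4 had 1 and 0, and Igfbpl1 had 5 and 1.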
